A study of Homo sapiens with 8 samples.

Results

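The messenger RNAs of 6 growth factor signalling genes were followed in SK-BR-3 cells without mir-141, without mir-200c or without both microRNAs. The genes, picked by name out of 9245 entries, were the receptors ERBB2 and FGFR3, the binding protein IGFBP2, the exchange factor SOS1 and the tyrosine kinases SYK and YES1. Each name matched 1 entry. They were picked with the ratios of experimental set 1 known, so those ratios are described below and not tested. SK-BR-3 is an established HER2-positive human breast cancer line that carries an amplified ERBB2 gene. The knockouts were made with TALENs, designed nuclease pairs. The study compared mir-141 knockout clones (number 23 in set 1, number 10 in set 2), mir-200c knockout clones (numbers 11 and 29), double knockout clones (numbers 55 and 61) and wild-type SK-BR-3 cells, each with 1 library in each of the 2 sets. The knockout clones are called mir-141-null, mir-200c-null and double-null below. Every knockout library is a clone of its own, and a change particular to a clone cannot be told apart from an effect of the lost microRNA.

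Growth factor receptors of this kind are tyrosine kinases that span the cell membrane. When they pair up they phosphorylate each other, adaptor proteins bind the phosphorylated tails, and the adaptors bring SOS1 to the membrane, where it loads Ras with GTP and starts the kinase cascade that ends in ERK. ERBB2 has no known ligand of its own and works as the partner of the other ErbB receptors. SRC family kinases such as YES1 relay signals from receptors and adhesion sites. SYK is best known for signalling below immune receptors in blood cells and is also made in breast epithelium. IGFBP2 is secreted and binds insulin-like growth factors.

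MicroRNAs of the mir-200 family find their messages mainly through the seed, bases 2 to 8 counted from the 5′ end, which pairs with complementary bases in the 3′ UTR. The mature forms of both deleted microRNAs, from RefSeq on GRCh38.p14, are shown because their seeds decide which letters were searched in the 6 genes. Capitals mark the seed.
hsa-miR-141-3p (chr12:6964155-6964176, + strand): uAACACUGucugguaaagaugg
hsa-miR-200c-3p (chr12:6963742-6963764, + strand): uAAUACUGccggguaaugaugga
The searched matches on the message strand were CAGTGTT or AGTGTTA for mir-141-3p and CAGTATT or AGTATTA for mir-200c-3p. An 8-base match, CAGTGTTA or CAGTATTA, holds both forms and was counted as 1 site. In the longest annotated 3′ UTR of each gene (GENCODE 29), 3 of the 6 genes had a match, against 38.8% of 9193 searched entries. All matches were to mir-200c-3p, which 24.1% of searched entries also had, and 26.0% had a match to mir-141-3p. None of the 6 genes had an 8-base match to either microRNA, which 9.67% of searched entries had.

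SOS1 had 4 matches to mir-200c-3p in a 3′ UTR of 4428 bases. At least 4 were found in 0.892% of searched entries, and in 8.25% of the 861 entries whose 3′ UTR is at least as long. SYK and YES1 had 1 match each, in 3′ UTRs of 2949 and 2836 bases. The sites are shown with their flanks, 5′ to 3′ on the message strand, GRCh38, and the capitals mark the match. They are all the matches found in the searched 3′ UTRs of the 6 genes.
SOS1 at chr2:38984235-38984241, − strand: tgaaatgtgCAGTATTccatcctta
SOS1 at chr2:38983806-38983812, − strand: tccattcaaCAGTATTtatgtgagc
SOS1 at chr2:38981647-38981653, − strand: tgtgtgcagCAGTATTtggtttgca
SOS1 at chr2:38981508-38981514, − strand: tttagagggCAGTATTtttgaaatc
SYK at chr9:90896577-90896583, + strand: tccaaagaaAGTATTAattcagaac
YES1 at chr18:724256-724262, − strand: ttttccccaAGTATTAaactctaat
No match was found in the 3′ UTRs of ERBB2 (618 bases), FGFR3 (3087 bases) and IGFBP2 (454 bases). A match is a stretch of letters, not a measured binding site.

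Each value below is a log2 ratio, with the knockout clone over the wild-type library of its own set, so 0 means no difference from that wild type and 1 means a doubling. Neither expression levels nor sequencing depth can be read from ratios. Whether a gene was high or low in these cells, and how precisely it was counted, is therefore unknown. For the same reason the line's identity could be checked only as a change. Of 16 luminal epithelial genes listed, 15 were measured, with set 1 medians of −0.03, 0.08 and −0.18 in the mir-141-null, mir-200c-null and double-null clone and no member beyond 1 in size. The 2 sets stood apart. Across all entries the Pearson correlation between a ratio column of set 1 and one of set 2 lay between −0.0022 and 0.0105 in 9 pairs. Within a set it lay between 0.502 and 0.709, where the shared wild type adds to it. For neighbouring genes along a chromosome the Spearman correlation lay between 0.0737 and 0.112 in set 1 and between −0.0086 and 0.0148 in set 2. It is in doubt whether a name stands beside the value of the same gene in set 2, and this was not tested. Set 2 values are therefore given as listed, and set 1 by itself as well as with set 2. Estimates over both sets share this doubt. With 1 library of each group in a set, a value within a set has no error of its own.

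The 6 genes split into 3 with large ratios in set 1, SYK, FGFR3 and IGFBP2, and 3 close to wild type, ERBB2, SOS1 and YES1. Above 1 was SYK alone in the mir-141-null clone (1 of 6, where 0.584% of all entries passed), the mir-200c-null clone (1 of 6 against 1.7%) and the double-null clone (1 of 6 against 1.53%). SYK was thus above 1 in all 3 clones, as were 0.281% of entries. Below −1 were 0 of 6 in the mir-141-null clone (0.562% of entries), FGFR3 in the mir-200c-null clone (1 of 6 against 1.06%), and FGFR3 with IGFBP2 in the double-null clone (2 of 6 against 0.746%). All 6 genes had 1 sign in the 3 clones, as 54.9% of entries did. The choice of the genes used these ratios, so nothing is read from the counts. In set 2 as listed, 0 of 6 lay beyond 1 in size in any clone, where 2.48%, 1.77% and 3.34% of entries did in the mir-141-null, mir-200c-null and double-null clone.

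**Figure D1:**
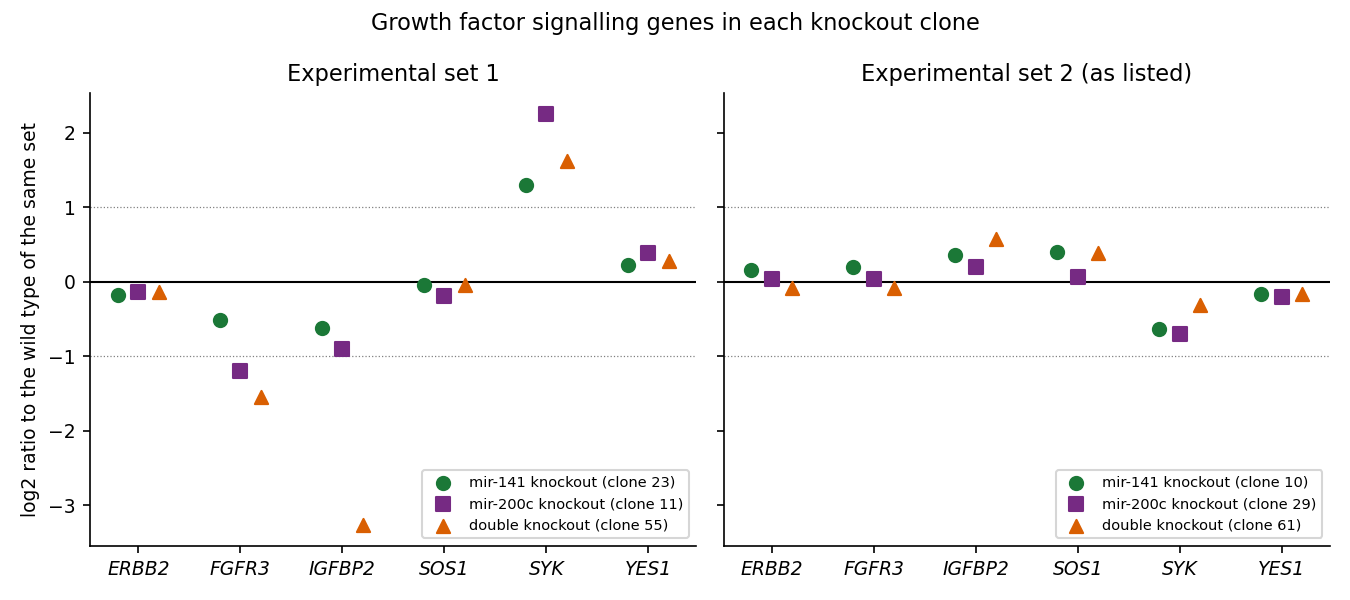
Log2 ratio of each of the 6 genes to wild type in its set (vertical axis), 1 point for each knockout clone, set 1 on the left and set 2 as listed on the right. Dotted lines mark 1 and −1. In set 1 SYK lies above 1 in all 3 clones and IGFBP2 reaches −3.27 in the double knockout, and in set 2 no point lies beyond 0.71 in size.

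ERBB2 (chromosome 17, 39687914 to 39730426, + strand, GRCh38) is the amplified receptor on which this line's growth is known to depend. Its ratios were −0.18, −0.14 and −0.14 in the mir-141-null, mir-200c-null and double-null clone of set 1, which are 0.886, 0.906 and 0.905 of the wild-type level. In set 2 they were listed at 0.15, 0.04 and −0.08. The set 1 clones lay close together, all just below wild type, and the clones of set 2 lay on both sides of it. Over both sets the estimates were −0.01, −0.05 and −0.11, each with a standard error of 0.15 (limma, adjusted p = 0.998, 0.957 and 0.879). In set 1, 19.6% of entries lay below ERBB2 in the mir-141-null clone, 35.4% in the mir-200c-null clone and 32.4% in the double-null one, so many genes had ratios this low or lower.

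Other genes near ERBB2 on 17q12 give it a local comparison. Which of them lie in the amplified segment of this line cannot be read from ratios. Of 20 genes listed for the 17q12 neighbourhood, 13 were measured. Without ERBB2, the other 12 had set 1 medians of −0.05, −0.14 and 0.02 in the mir-141-null, mir-200c-null and double-null clone. The nearest measured neighbour on 1 side, PGAP3, which remodels the lipid anchor of membrane proteins, had −0.18, 0.15 and 0.08. On the other side MIEN1 had −0.12, −0.24 and −0.35. GRB7, an adaptor that binds activated ERBB2 and is usually amplified with it, had −0.03, −0.03 and 0.03. STARD3, a cholesterol-binding protein of late endosomes, had −0.17, −0.30 and −0.25. The set 1 ratio largest in size among the measured neighbourhood genes was that of PPP1R1B, a phosphatase inhibitor, at −1.24 in the mir-200c-null clone. It had 0.14 in the mir-141-null and −0.04 in the double-null clone. In set 2 PPP1R1B was listed at −1.78, −0.62 and −1.40. The annotated exons of ERBB2 share 571 bases with MIEN1 and 194 with PGAP3, both on the opposite strand. The sources used here do not say whether reads were counted by strand, so reads in those bases may count for either gene.

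The other measured ErbB receptors also lay near wild type in set 1. EGFR, the first known member of the family, had −0.05, 0.05 and 0.15 in the mir-141-null, mir-200c-null and double-null clone. ERBB3, the preferred partner of ERBB2 and a strong activator of PI3K, had −0.13, 0.00 and −0.10. The ligand EGF had −0.35, 0.25 and 0.42. In set 2 EGFR was listed at −0.54, −0.55 and −0.55, ERBB3 at −0.14, 0.06 and 0.10 and EGF at −0.28, −0.10 and −0.29. ERBB4 and the other 9 listed ErbB ligands were not analysed here.

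FGFR3 (chromosome 4, 1793293 to 1808872, + strand) is a receptor for fibroblast growth factors. Its ratios were −0.52, −1.20 and −1.55 in the mir-141-null, mir-200c-null and double-null clone of set 1. That is 0.697, 0.435 and 0.341 of the wild-type level, and it ranked 219, 60 and 24 from the lowest of 9245 entries. All 3 clones were below wild type, and the 2 clones without mir-200c were the lowest. In set 2 FGFR3 was listed at 0.19, 0.03 and −0.09, close to wild type. Compared within set 1, the double knockout lay 1.03 below the mir-141 knockout, a difference of −1.03 that was the 17th lowest among all entries. Only FGFR3 and IGFBP2 of the 6 genes had such a difference below −1 (2 of 6 against 0.206% of entries). It lay 0.35 below the mir-200c knockout (difference −0.35, rank 989 from the lowest). Over both sets the estimates were −0.17, −0.59 and −0.82 with a standard error of 0.33 (limma, adjusted p = 0.998, 0.793 and 0.740).

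The other FGF receptors did not have ratios as low as FGFR3. FGFR1 had −0.04, −0.05 and −0.85 in the mir-141-null, mir-200c-null and double-null clone of set 1, FGFR2 had −0.41, −0.05 and 0.13, and FGFR4 had −0.16, −0.37 and −0.28. The docking protein FRS2, which links FGF receptors to GRB2 and SOS1, had −0.15, −0.28 and −0.01, and its relative FRS3 had −0.53, 0.24 and −0.05. All 6 measured genes of this list were below 0 in the mir-141 knockout and 5 of 6 in the mir-200c and double knockout, where 4794, 4809 and 4968 of the 9245 entries were. The medians were −0.29, −0.17 and −0.17, where all entries had −0.01, −0.02 and −0.03. In set 2 FGFR1 was listed at 0.39, 0.36 and 0.13, FGFR2 at 0.05, 0.15 and 0.20 and FGFR4 at 0.10, −0.02 and −0.10. The neighbours of FGFR3 on chromosome 4 did not share its ratios: the 10 nearest measured genes had medians of −0.10, −0.13 and −0.24 and none lay beyond 1 in size. The closest of them, TACC3, which helps to build the mitotic spindle, had −0.11, −0.29 and −0.23.

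IGFBP2 (chromosome 2, 216632828 to 216664436, + strand) had the lowest ratio of the 6 genes. It had −0.62, −0.90 and −3.27 in the mir-141-null, mir-200c-null and double-null clone of set 1. This is 0.650, 0.535 and 0.104 of the wild-type level. The double knockout clone stood far below both single knockouts and ranked 5 from the lowest of all entries. Within set 1 it lay below the mir-141 knockout with a difference of −2.65 (rank 2 from the lowest) and below the mir-200c knockout with a difference of −2.37 (rank 6), the only one of the 6 genes below −1 in that comparison (1 of 6 against 0.822% of entries). In set 2 IGFBP2 was listed at 0.36, 0.19 and 0.57, above wild type in all 3 clones. Over both sets the estimates were −0.13, −0.36 and −1.35 with a standard error of 0.78 (limma, adjusted p = 0.998, 0.937 and 0.743).

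The rest of the IGF axis lay on the other side of wild type in most set 1 clones. IGFBP5, a related binding protein encoded right next to IGFBP2 among the measured genes, had 0.68, 0.66 and 0.26 in the mir-141-null, mir-200c-null and double-null clone. The receptor IGF1R had 0.25, 0.31 and 0.31, and IGF2R, which clears IGF2 into lysosomes, had −0.07, 0.48 and 0.36. In set 2 IGFBP5 was listed at 0.33, 0.17 and 0.20, IGF1R at 0.09, 0.07 and 0.03 and IGF2R at −0.16, −0.11 and −0.15. The 10 nearest measured genes around IGFBP2 had medians of 0.01, −0.03 and 0.02 in set 1, and 1 of them, the matrix gene FN1, lay beyond 1 with 1.17, 1.23 and 1.12. The other 10 genes listed for the axis were not analysed here.

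SOS1 (chromosome 2, 38981396 to 39124345, − strand) exchanges GDP for GTP on Ras. Its ratios were −0.05, −0.19 and −0.04 in the mir-141-null, mir-200c-null and double-null clone of set 1, which are 0.963, 0.878 and 0.973 of the wild-type level. In set 2 they were listed at 0.40, 0.06 and 0.39. The clones without mir-200c, whose seed has 4 matches in this message, were thus slightly below wild type in set 1 and above it in set 2 as listed. In set 2 the mir-141 knockout was listed as high as the double knockout. Over both sets the estimates were 0.17, −0.06 and 0.18 with a standard error of 0.17 (limma, adjusted p = 0.998, 0.952 and 0.818). Its paralogue SOS2 had 0.38, 0.23 and 0.44 in the same clones of set 1. Its set 2 ratios were listed as −0.28, −0.42 and −0.63.

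SYK (chromosome 9, 90801787 to 90898549, + strand) had the highest ratio of the 6 genes. It had 1.30, 2.25 and 1.62 in the mir-141-null, mir-200c-null and double-null clone of set 1, or 2.46, 4.75 and 3.07 times the wild-type level. It ranked 28, 9 and 30 from the highest of all entries. All 3 clones were high, and their ratios share 1 wild-type library. Between clones, where that library cancels, the double knockout was above the mir-141 knockout (difference 0.32, rank 935 from the highest) and below the mir-200c knockout (difference −0.63, rank 253 from the lowest). In set 2 SYK was listed at −0.63, −0.71 and −0.31, below wild type in all 3 clones. Over both sets the estimates were 0.34, 0.77 and 0.65 with a standard error of 0.59 (limma, adjusted p = 0.998, 0.821 and 0.812).

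Since SYK is strongly expressed in blood cells, blood cell genes were set beside it. Only 3 of 10 listed genes were measured, with set 1 medians of −0.01, −0.48 and −0.44 in the mir-141-null, mir-200c-null and double-null clone. LCP1, an actin-bundling protein of leukocytes, had −0.13, 1.05 and −0.44, CORO1A, a leukocyte actin regulator, had −0.01, −0.54 and −0.48, and the macrophage protein CD68 had 0.52, −0.48 and 0.40. None was high in all 3 clones as SYK was. Mesenchymal genes were measured for 6 of 13 listed and had set 1 medians of 0.04, 1.12 and 0.81 in the same clones. Beyond 1 in size were 1, 4 and 2 of the 6, against 1.15%, 2.76% and 2.27% of entries. In set 2 as listed the mesenchymal medians were −0.092, −0.2 and −0.215. Fibroblast genes were measured for 3 of 8 and had set 1 medians of −0.11, 0.69 and −0.09. Their part in the ratios of the 6 genes was not tested. In bulk RNA, fewer cells of a kind and less RNA in each cell cannot be told apart. The 10 nearest measured genes around SYK on chromosome 9 had medians of −0.22, −0.22 and −0.23, and SEMA4D, a semaphorin, was lowest among them at −0.80, −1.60 and −1.39. Of these neighbours 9, 8 and 6 of 10 were below wild type, where 4794, 4809 and 4968 of the 9245 entries were. The count in the double-null clone is thus near the share of all entries.

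**Figure D2:**
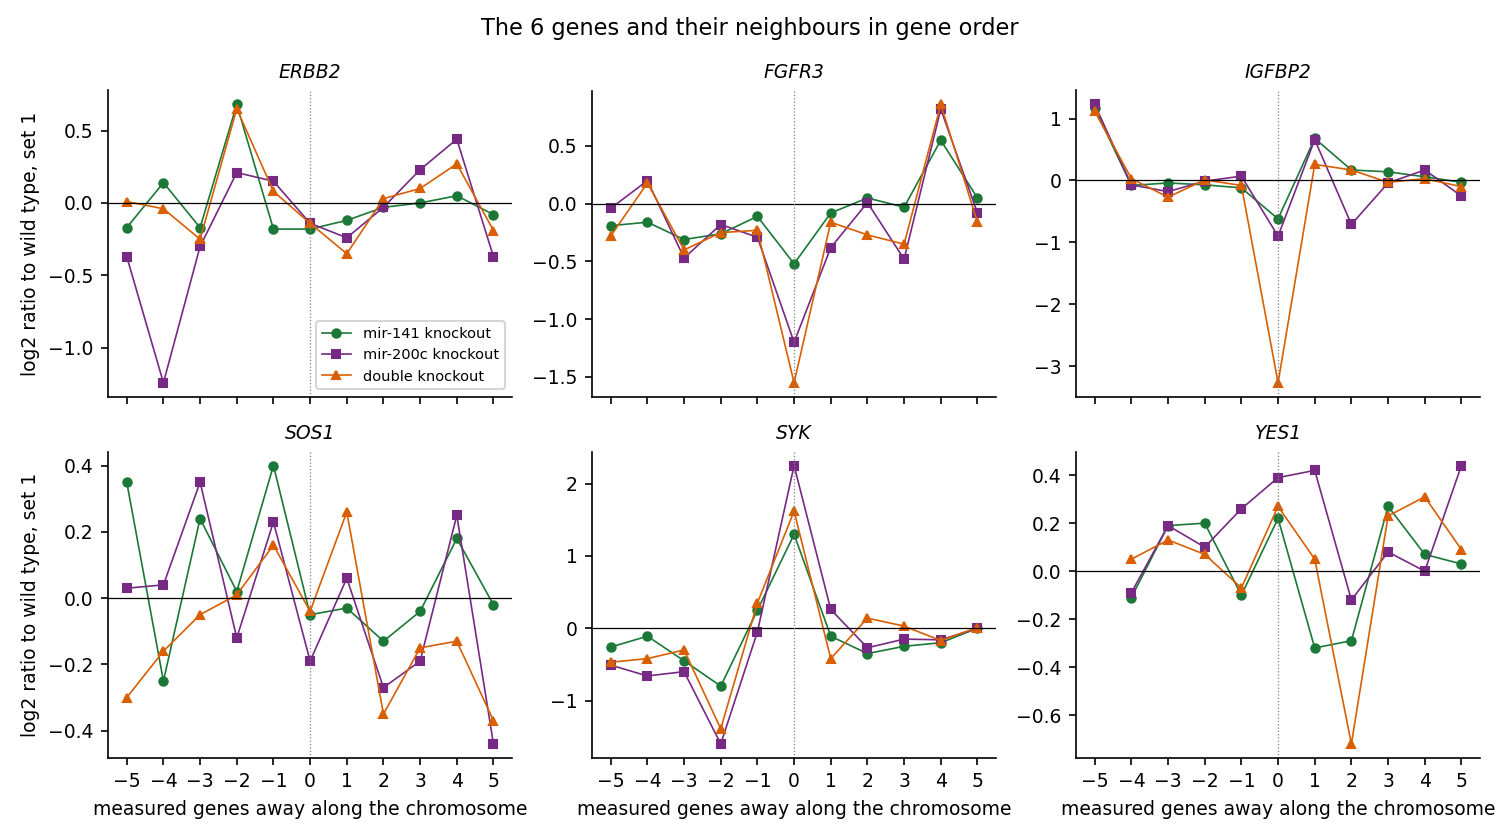
Set 1 log2 ratios of each of the 6 genes (position 0) and of up to 5 measured genes on each side, counted in gene order along the chromosome, with lines joining the values of 1 clone. FGFR3, IGFBP2 and SYK stand apart from their nearest neighbours, while ERBB2, SOS1 and YES1 lie within the range of theirs.

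YES1 (chromosome 18, 721588 to 812546, − strand) is a SRC family kinase expressed in most tissues. Its ratios were 0.22, 0.39 and 0.27 in the mir-141-null, mir-200c-null and double-null clone of set 1, which is 1.16, 1.31 and 1.21 times the wild-type level. In set 2 they were listed at −0.17, −0.21 and −0.16. The clones of a set lay close together, within 0.17 in set 1 and 0.05 in set 2, on opposite sides of wild type. Over both sets the estimates were 0.02, 0.09 and 0.06 with a standard error of 0.18 (limma, adjusted p = 0.998, 0.928 and 0.945). An annotated antisense RNA shares 154 exon bases with YES1.

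Among the other non-receptor tyrosine kinases no gene came near SYK. SRC, the founding member of the family of YES1, had −0.08, 0.99 and 0.13 in the mir-141-null, mir-200c-null and double-null clone of set 1. PTK2B, a focal adhesion kinase responsive to calcium, had 0.16, 0.79 and 0.91. PTK6, a kinase of epithelia often found in breast tumours, had −0.30, 0.44 and 0.41. At the low end TNK2 had −0.19, −0.21 and −0.23 and the focal adhesion kinase PTK2 had −0.14, 0.01 and −0.04. The 12 measured kinases had medians of 0.13, 0.26 and 0.23. In set 2 SRC was listed at −0.18, −0.28 and −0.24, PTK2B at −0.57, −0.30 and −0.25 and PTK6 at −0.18, −0.13 and −0.20. The other SRC family members listed (among them FYN, LYN and LCK) and FRK were not analysed here.

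The 10 lists of pathway genes held 144 genes, of which 88 were measured. Beyond 1 in size in set 1 were 1 of 88 in the mir-141 knockout (1.14%, against 1.15% of all entries), 3 in the mir-200c knockout (3.41% against 2.76%) and 4 in the double knockout (4.55% against 2.27%). Beyond 0.5 in size were 12, 13 and 17 of 88 in the same clones, against 6.18%, 17% and 12.4% of entries. Without the 6 chosen genes the counts beyond 1 were 0, 1 and 1 of 82. The 1 gene was GRB10, an adaptor that restrains insulin and IGF receptor signalling, with 0.77, 1.14 and 1.19 in the mir-141-null, mir-200c-null and double-null clone. It was listed at −0.21, −0.57 and −0.57 in set 2. The medians of the 82 genes were 0.02, 0.00 and 0.05 in set 1. Apart from the chosen genes and GRB10, no pathway ratio of set 1 was beyond 1 as deposited. With each column centred on its median, the count in the mir-200c-null clone was 4 of 88 in place of 3.

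Receptors outside the ErbB and FGF families had medians of 0.02, 0.01 and 0.07 in the mir-141-null, mir-200c-null and double-null clone over 9 measured genes. EPHA2, an ephrin receptor, was highest with 0.63, 0.01 and 0.62, followed by EPHA1 with −0.03, 0.17 and 0.36. EPHB3 was lowest with −0.07, −0.36 and −0.43, followed by MET, the receptor of hepatocyte growth factor, with −0.05, −0.31 and −0.21. Among 18 measured adaptors and Ras regulators, with medians of 0.04, −0.03 and 0.01, GRB10 was highest. The ubiquitin ligase CBLC was lowest with −0.33, −0.36 and −0.32, and the Ras inactivator RASA2 had −0.62, 0.13 and −0.15. The GTPase HRAS had −0.04, −0.30 and −0.07, and NRAS had 0.04, −0.06 and 0.02.

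Downstream of Ras, the 10 measured RAF, MEK and ERK kinases had medians of −0.09, −0.09 and −0.17 in the mir-141-null, mir-200c-null and double-null clone. The scaffold KSR1 was among the lowest with −0.25, −0.10 and −0.42. RPS6KA2, a kinase that ERK activates, was highest with −0.03, 0.79 and 0.46, and RPS6KA1 had 0.13, −0.01 and 0.05. The PI3K, AKT and mTOR genes had medians of 0.03, −0.08 and 0.02 over 16 genes. RICTOR, a subunit of mTOR complex 2, had 0.31, 0.66 and 0.46, and the PI3K regulatory subunit PIK3R3 had 0.27, 0.59 and 0.05. PDPK1, which activates AKT, had −0.34, −0.29 and −0.23, and AKT1 had −0.01, −0.36 and −0.25. RICTOR was above wild type in every clone of both sets, listed at 0.38, 0.35 and 0.40 in set 2. The same sign in all 6 clones was found for 17% of entries.

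The 9 measured feedback inhibitors had medians of 0.15, 0.12 and 0.18 in the mir-141-null, mir-200c-null and double-null clone, with 8, 6 and 7 of them above 0, where 4451, 4436 and 4277 of the 9245 entries were. DUSP5 and DUSP4, phosphatases that switch off ERK, were highest, with 0.57, 0.47 and 0.42 for DUSP5 and 0.59, 0.07 and 0.62 for DUSP4. LRIG2 was lowest with 0.01, −0.21 and −0.64, followed by SPRED2, an inhibitor of the Ras pathway, with −0.01, −0.27 and 0.14. ERRFI1, which binds and inhibits ErbB kinases, had 0.29, 0.12 and 0.15 in the same clones, with 0.10, 0.03 and 0.05 listed for set 2.

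**Figure D3:**
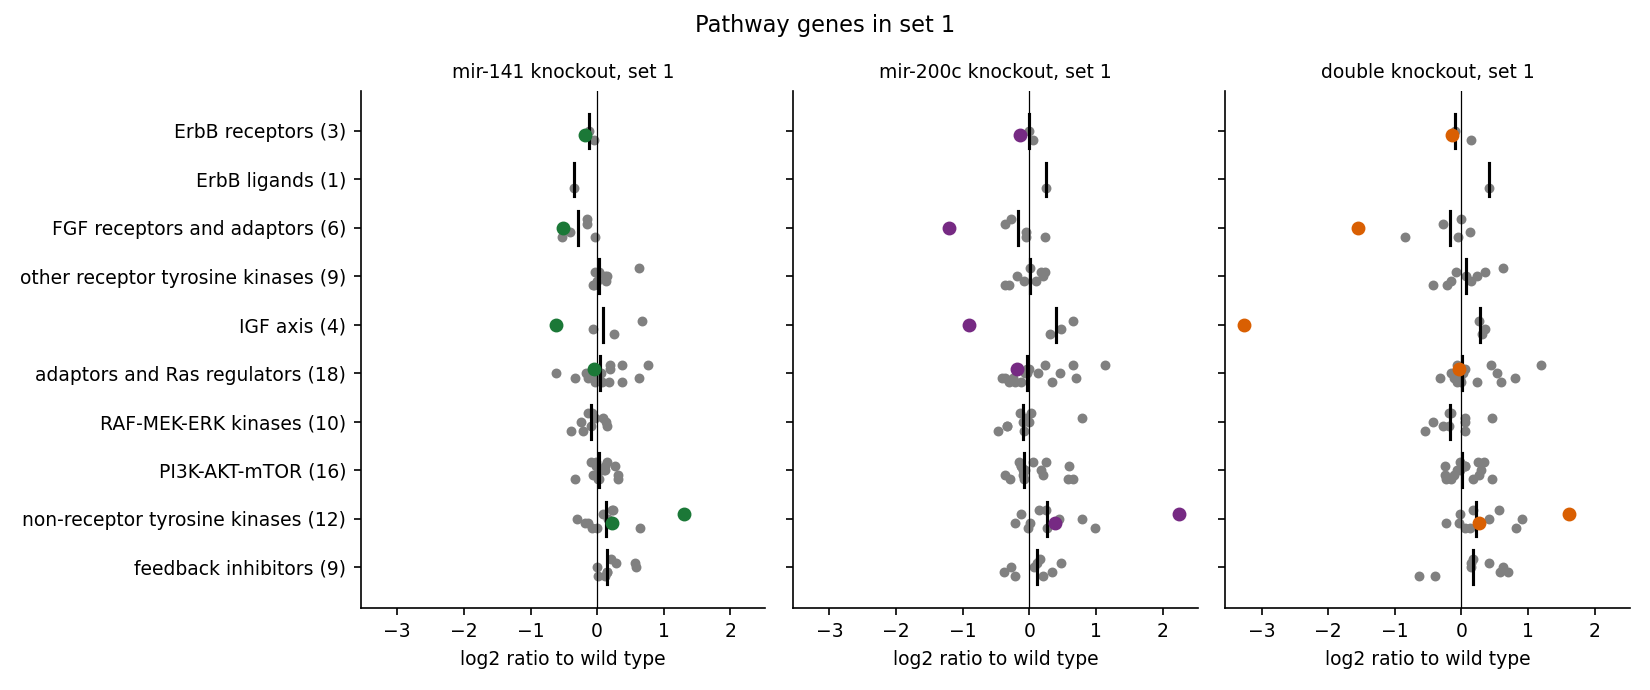
Set 1 log2 ratios (horizontal axis) of the measured genes of 10 pathway lists, with the number measured in brackets, in the mir-141-null, mir-200c-null and double-null clone. Coloured points are the 6 chosen genes, grey points the others and black bars the medians. SYK at 1.30, 2.25 and 1.62 and IGFBP2 at −3.27 in the double knockout lie outside the range of the other listed genes.

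Between the sets, 4 of the 6 genes (SYK, IGFBP2, YES1 and SOS1) had 1 sign in all 3 clones of set 1 and the other sign in all 3 of set 2 as listed, as did 15.3% of entries. The same sign in all 6 clones was found for 0 of 6, against 17% of entries. The fit over both sets found no gene past an adjusted p of 0.05. With limma it called 0 of 9245 entries (0.0%) in the mir-141 knockout, the mir-200c knockout and the double knockout against wild type, with 248, 499 and 581 entries at an unadjusted p under 0.05. It also called 0 for the double against the mir-141 knockout (248 unadjusted) and against the mir-200c knockout (233 unadjusted), and 0 for loss of mir-141 (476) and of mir-200c (821) across both backgrounds. The counts stayed 0 in the fit without the set as a block and with robust moderation. Of the 6 genes, FGFR3 had the smallest unadjusted p in the double knockout, 0.0425, with an adjusted p of 0.740 in limma. For loss of mir-200c across both backgrounds its estimate was −0.62, with an unadjusted p of 0.0229 (limma, adjusted p = 0.541). The genes were picked with set 1 ratios known, so these p-values are a description and no support. The ratio of FGFR3 in the double knockout was −1.55 in set 1 and −0.09 in set 2 as listed, where 42.2% of entries lay lower. A p above the threshold does not show that the genes were unaffected.

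**Figure D4:**
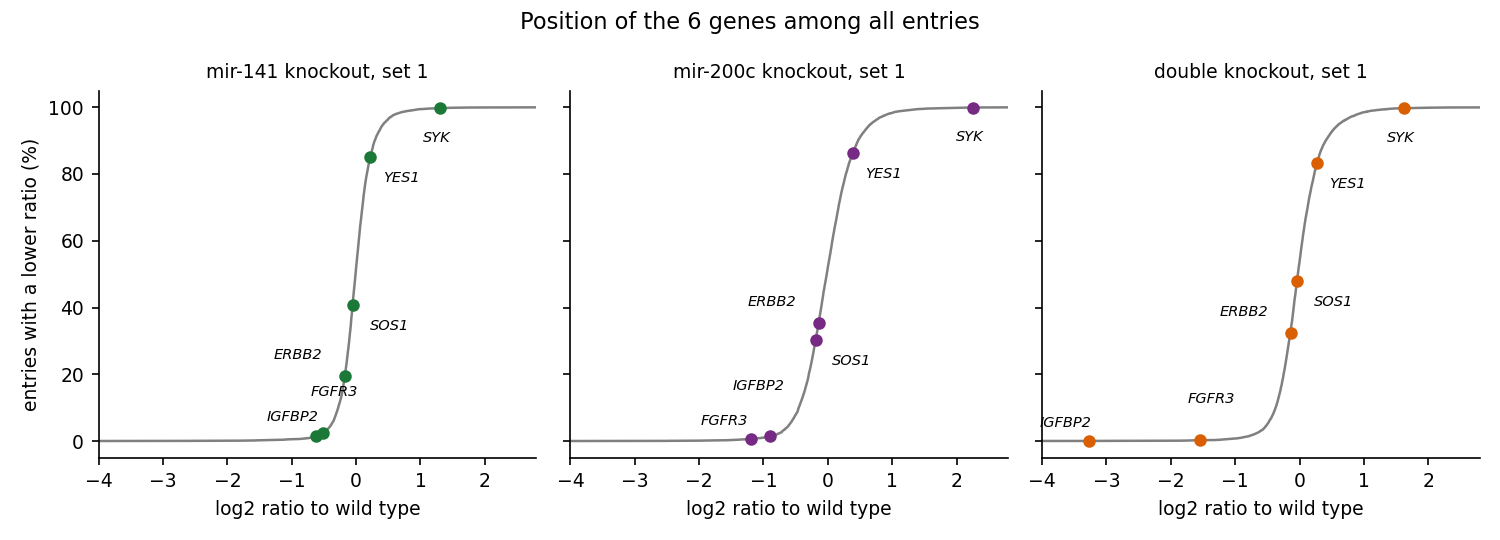
Share of all 9245 entries with a lower ratio (vertical axis, percent) at each log2 ratio (horizontal axis) in the 3 clones of set 1, with the 6 genes marked on the curve. SYK sits at 99.7%, 99.9% and 99.7%, YES1 between 83.3% and 86.2%, and FGFR3 and IGFBP2 below 3% throughout.

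The entries nearest to SYK, FGFR3 and IGFBP2 in set 1 were taken by Euclidean distance over the 3 ratios. Nearest to SYK were ZG16, a secreted lectin (distance 0.33), the sulfotransferase CHST15 (0.38) and PAPLN (0.39). CHST15 had 1.48, 2.45 and 1.89 in the mir-141-null, mir-200c-null and double-null clone. Nearest to FGFR3 were LOC100507003 (0.23), C9orf106 (0.35) and TBATA (0.44). IGFBP2 had no close companion. Its nearest entries were the ATP-gated channel P2RX5 (1.24), with −1.75, −0.59 and −2.86, the lipid flippase ATP11A (1.36), with −0.61, −0.84 and −1.91, and 1 of 2 entries of PDE4DIP (1.69). In set 2 ZG16 was listed at −0.01, −0.40 and −0.32, CHST15 at 0.18, 0.37 and 0.46 and PAPLN at 0.01, −0.03 and 0.13. P2RX5 was listed at 0.09, 0.05 and 0.01, close to wild type. ATP11A was listed at 0.04, 0.21 and 0.18 and the PDE4DIP entry at 0.17, 0.11 and 0.17.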

How the data were processed

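RNA of 8 SK-BR-3 libraries in 4 groups and 2 experimental sets was compared. Per the labels' protocols, oligo(dT)-selected mRNA was fragmented, joined to adaptors at both ends and read on an Illumina HiSeq. TopHat2 and the genome build GRCh37.p10 are named, per the submitters' processing notes, with no tool version. The sources used here state neither how reads were counted nor how values were scaled or filtered. The 6 columns the authors deposited hold log2 ratios, each with a clone over its set's wild-type library, per the file headers. Columns of samples outside the series numbered 0. Depth per library is unknown, so no interval that needs it is given.

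Each wild type was set to 0, which builds the set into each comparison. Sets are given in the labels, and a ratio never crosses them, so the set pairs the libraries and is a block in the model. All 9245 entries entered linear models in limma 3.58.1 (R 4.3.3), with 3 residual degrees of freedom for the 4 groups and 4 for both losses, and Benjamini-Hochberg adjustment over all entries. P-values measure how unequally the groups differed from each other in the 2 sets, pooled over groups. The block takes out a mean difference between the sets. Every knockout library is a clone of its own, so this spread holds differences between clones as well as technical ones. Whether the 2 wild-type libraries came from separate cultures is not stated in the labels. The fit was tested on simulated data. Alternatives were no block, median centring, robust moderation and leaving out each library.

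The 6 genes, the gene lists and the tests were chosen with earlier results of these data known. Named beside the 6 genes were all measured ErbB, FGF receptor, IGF axis and SRC family genes. From each other list, those beyond 1 in a set 1 clone and the 2 highest and 2 lowest by set 1 mean were named, with PTK6, HRAS, NRAS, GRB7, STARD3, PPP1R1B, SOS2, TACC3, SEMA4D, FN1 and ERRFI1 added after their values were seen. Some genes that this rule names are not reported here. Genes on either side of a member were also compared after its values were seen. Coordinates are GRCh38 (GENCODE 29, and RefSeq GRCh38.p14 for the microRNAs), not the authors' build. Seed matches were searched in 9193 entries with an annotated 3′ UTR.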

Additional observations from a re-analysis of the deposited data

Results flagged for a closer look

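Of the 6 genes, 4 lay on one side of wild type in all 3 clones of set 1 and on the other side in all 3 clones of set 2 as listed, as did 15.3% of all entries. The same sign in all 6 clones was found for 17% of entries. It is in doubt whether set 2 names stand beside the values of the same genes, so a difference between the sets may not be one of the gene. The difference between the sets was not tested, since each clone has 1 library. For SYK the set 1 mean was 1.72 and the set 2 mean −0.55, a difference of 2.27. For IGFBP2 the means were −1.60 and 0.37, a difference of −1.97. YES1 had 0.29 and −0.18, a difference of 0.47, and SOS1 had −0.09 and 0.28, a difference of −0.38.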

How the results depend on the processing

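In 198 alternative fits of the 18 estimates (6 genes against wild type in 3 knockouts), 0 passed an adjusted p of 0.05, and the smallest was 0.409 (limma). Dropping the set as a block (no replicate block) or using robust moderation cannot move these 18 estimates, which are means of the same ratios. FGFR3 in the double knockout thus stayed at −0.82, and the kept directions say nothing about stability. Only the errors could change, and all counts of called genes stayed 0. Without the block each ratio was still taken over the wild type of its own set. With median centring 17 kept their direction, and ERBB2 in the mir-141 knockout turned from −0.01 to 0.00. Centring moved a set 1 ratio by more than 1 SD of the gene's 3 clones only for ERBB2 in the double knockout (−0.12).

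Leaving out 1 library at a time, the estimates spanned these ranges. In the mir-141 knockout they were −0.13 to 0.11 for ERBB2, −0.73 to 0.40 for FGFR3, −0.02 to 0.36 for SOS1, −0.80 to 1.47 for SYK, −0.21 to 0.26 for YES1 and −1.12 to 0.85 for IGFBP2. In the mir-200c knockout they were −0.15 to 0.05 for ERBB2, −1.15 to −0.02 for FGFR3, −0.25 to 0.13 for SOS1, −0.36 to 1.90 for SYK, −0.15 to 0.33 for YES1 and −1.34 to 0.63 for IGFBP2. In the double knockout they were −0.21 to −0.02 for ERBB2, −1.39 to −0.26 for FGFR3, −0.01 to 0.37 for SOS1, −0.48 to 1.79 for SYK, −0.18 to 0.29 for YES1 and −2.92 to 0.22 for IGFBP2. Direction turned in 19 of these 144 fits. FGFR3 in the mir-200c and double knockout and ERBB2 in the double knockout kept theirs in each. For FGFR3 in the mir-200c knockout this does not rest on both clones. Without the set 1 clone the estimate was −0.33, although the remaining set 2 clone was listed at 0.03. Without the set 1 double knockout clone, the double knockout estimates were −0.42 for FGFR3 and −0.17 for ERBB2. The remaining set 2 clone was listed at −0.09 and −0.08, nearer to wild type. The set term of the model draws on the other groups in these fits. The count of called genes was 0 in 50 of 56 such fits and otherwise 1 or 2. For the mir-141 knockout 1 gene was called when the set 2 wild type was left out. For the mir-200c knockout it was 1 when the set 2 wild type or 1 or the other of the mir-200c clones was. For the double knockout it was 2 when the set 2 wild type was, and for the double against the mir-200c knockout it was 1 when the set 1 clone lacking mir-200c was. The causes were not tested. Beyond 0.5 rather than 1, the pathway counts of set 1 were 12, 13 and 17 of 88 in the mir-141-null, mir-200c-null and double-null clone, and without the 6 genes (an alternative added after seeing the data) those beyond 1 were 0, 1 and 1. With 8-base matches alone, 0 of the 6 genes had a seed match. Depth is unknown, so low and high genes carry equal weight.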
